A study of Mus musculus with 2 samples.

Results

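The 10 genes described here take part in the hypertrophy of chondrocytes and in the mineralization of their matrix, and they were read in primary chondrocytes of mice on an array from before cyclic tensile strain and on another from 24 h later. They comprised 7 promoters of mineralization or markers of hypertrophy (Col10a1, Ibsp, Alpl, Spp1, Panx3, Phospho1 and Dmp1) and 3 inhibitors of mineralization (Enpp1, Ank and Mgp), of the 20660 genes that the arrays named through RefSeq transcripts. The members were chosen by name, with earlier results of these data known, and a gene was represented by its brightest probe. Of the 10 genes, 9 had a single probe with a RefSeq accession and Ibsp had 2, and each of these probes had 1 spot on the array. Both arrays measured 9 of the genes well above background, as they did 14222 of the 20660 genes, and Dmp1 was well above background on neither array.

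Chondrocytes of the growth plate enlarge before cartilage is replaced by bone, and such hypertrophic cells make type X collagen and release vesicles in which mineral first forms. Phosphate favours the growth of hydroxyapatite and inorganic pyrophosphate blocks it, so that enzymes and transporters which make, export or cleave pyrophosphate set the balance together with proteins that bind the mineral surface. In articular cartilage the same genes are known for their appearance during osteoarthritis, while inhibitors of mineralization keep the healthy tissue free of mineral.

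The chondrocytes came from articular cartilage of C57BL/6J mice that were 6 days old, freed with collagenase, and grew in silicon chambers with a fibronectin coat. After 48 h they received 10% elongation at 0.5 Hz for 30 min, and RNA was taken before this loading (1 array) and 24 h after it (1 array). No genetic change and no added agent is named for either group. The number of animals behind each RNA and their sex are not given in the sources used here. The control was taken before the loading, so the effect of strain cannot be told apart from that of another 24 h in culture. There was 1 array per group, so differences have no replicate check, no p-value is given, and precision is limited by the array number. Values written after ± are within-array errors, combined from the errors that the scanner software gave for the spots of a probe on each array. They leave out any variation between cultures and are smaller for probes with more spots. Their median over genes well above background on both arrays was 0.20. For bright spots the scanner error was nearly a fixed share of the intensity (1891 of 18910 for Col10a1 and 14535 of 145346 for Mgp before loading). For bright probes with 1 spot, the value after ± is thus nearly constant and is not a precision measured for each probe. A call by 2 errors is then close to a fixed cut on the log2 ratio. Between the spots of 259 probes with at least 8 spots, the median SD of the log2 ratio was 0.08.

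Values are the scanner software's processed intensities, and a log2 ratio is the log2 intensity relative to the 75th percentile of its array, 24 h after minus before loading. Intensities of different probes cannot be set against each other, since probes differ in how strongly they bind. A gene is called measured where its probe was well above background on both arrays, and across the 14222 such genes the median log2 ratio was -0.01. Of 10 markers of chondrocytes, read to check the label of the cells, all were well above background on both arrays. So were 14222 of the 20660 genes and several markers of other cells, so detection alone says little about the label. The probe of Col2a1, the chain of type II collagen, read 499543 before loading and 474876 at 24 h. By more than 2 within-array errors, Chad (-0.86) and Col11a1 (-0.82) were lower and Matn1 (0.56) and Sox9 (0.22) higher. Of all measured genes, 9.38% were lower and 7.64% higher by that much, and these shares apply to the other lists below. Sox9 passed with 9 spots and an error of 0.07, while Hapln1 (0.40) and Acan (0.34) did not, with 1 spot and an error of 0.20 each. The median log2 ratio of the 10 markers was -0.01. The sign of this median differed between scalings (0.14 with loess), so that no direction is given for it.

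Type X collagen, bone sialoprotein and alkaline phosphatase gave the lowest log2 ratios of the members. Intensities of Col10a1 and Ibsp were more than 2-fold lower at 24 h, those of Alpl, Phospho1, Enpp1, Spp1 and Panx3 were lower by less than 2-fold, and those of Mgp and Ank lay within 1 within-array error of no difference. No member was more than 2-fold higher. Of the 9 members on both arrays, 2 were thus more than 2-fold lower, where 1.83% of the 14222 genes were, and 0 were more than 2-fold higher, where 0.668% of the genes were. The paper that used these arrays had already reported lower Col10a1 after the loading, so the count of 2 was not independent of known results. The members' median log2 ratio was -0.53, beside -0.01 for all genes.

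**Figure D1:**
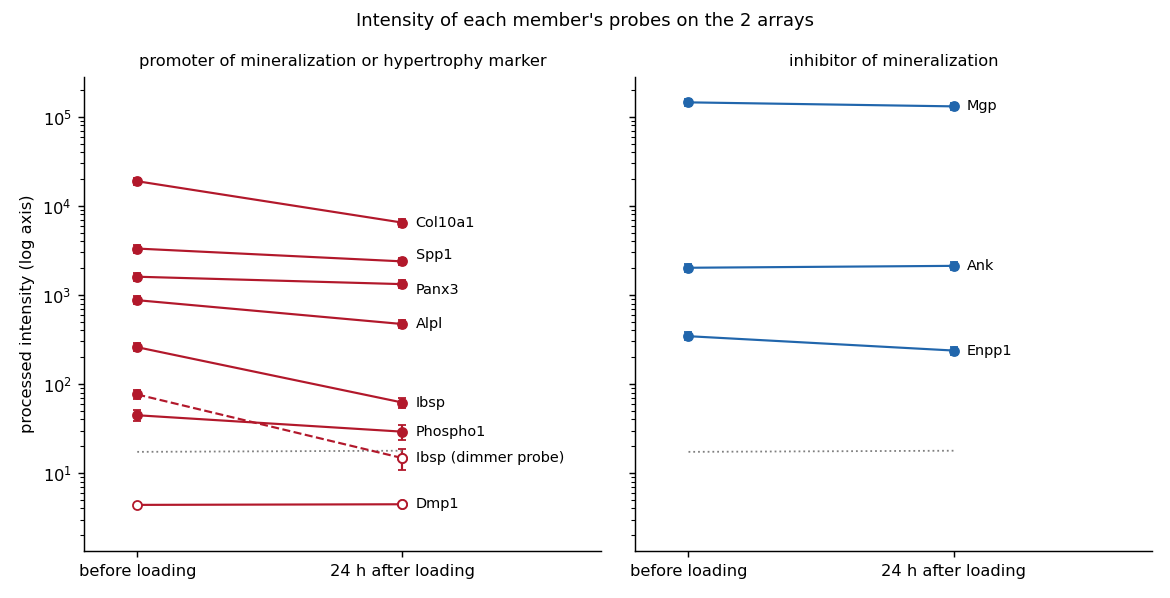
Processed intensity (log axis) of every probe of the 10 members before and 24 h after loading, with the scanner software's error as bars. Open symbols are spots not well above background, the dashed line is the dimmer probe of Ibsp and the dotted line is the lowest intensity well above background on each array (17.3 and 17.8). The lines of Col10a1 and of both Ibsp probes slope down most, those of Mgp and Ank are nearly level, and heights of different probes cannot be compared.

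Col10a1 encodes the chain of type X collagen, the collagen that marks hypertrophic chondrocytes. Its probe, listed under the transcript NM_009925, read 18910 before loading and 6485 at 24 h. The log2 ratio was -1.54 ± 0.20, which left 34.3% of the earlier level. A range of 2 within-array errors on either side ran from 2.20-fold to 3.87-fold lower. A lower log2 ratio was found for 78 of the 14222 genes. Among the 1348 genes whose probes were at least as bright as that of Col10a1, 0 had a log2 ratio as low. Its spot had 26 others within 100 µm on the array, of which 1 was past 2-fold upwards and 1 downwards, with a median log2 ratio of -0.02.

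Ibsp encodes bone sialoprotein, an acidic protein that starts hydroxyapatite crystals and binds integrins. On its brighter probe the intensity went from 259 to 61.9, the lowest log2 ratio of the members at -2.06 ± 0.23, or 4.18-fold lower. Raw medians of this spot were 311 before loading and 105 at 24 h, above a local background of 44 on both arrays. The range of 2 within-array errors ran from 3.05-fold to 5.73-fold lower, and 35 of the 14222 genes had a lower log2 ratio. The dimmer probe of the same transcript, NM_008318, had 76.2 before loading and 14.7 at 24 h, where it was not well above background. Set against the lowest intensity well above background on that array, 17.8, this probe was 4.28-fold lower, without allowance for error. From its own intensities, the lower end of 2 within-array errors was 2.91-fold lower. Both probes of Ibsp therefore went past 2-fold in the same direction. The size for the brighter probe depended on the background correction, and with normexp correction, which leaves an offset of 50 on every spot, its log2 ratio was -1.36. Among the 30 spots around it, 3 were past 2-fold upwards and 1 downwards, with a median log2 ratio of 0.07, and around the dimmer probe 0 of 29 were past 2-fold upwards and 1 was downwards.

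The stretches before the transcription start of Col10a1 and Ibsp are shown because these were the members past 2-fold, with that of Spp1, which lies near Ibsp on chromosome 5, and that of Ank, which had the highest log2 ratio of the members. They are the 250 bases upstream in RefSeq, build GRCm38.p6, 5′ to 3′ on the strand of the gene: chr10:34389731-34389980 (plus) for Col10a1, chr5:104299037-104299286 (plus) for Ibsp, chr5:104434861-104435110 (plus, the more upstream of 2 starts) for Spp1 and chr15:27466427-27466676 (plus) for Ank. The capitals mark the letters of a TATA box (TATAAA), an inverted CCAAT box (ATTGG), a Runx core (TGTGGT) or an AP-1 site (TGANTCA) on either strand.
Col10a1: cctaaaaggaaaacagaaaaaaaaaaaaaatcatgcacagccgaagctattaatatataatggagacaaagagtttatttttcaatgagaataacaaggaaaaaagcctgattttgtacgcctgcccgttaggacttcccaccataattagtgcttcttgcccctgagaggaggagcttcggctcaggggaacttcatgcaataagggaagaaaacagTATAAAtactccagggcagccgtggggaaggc
Ibsp: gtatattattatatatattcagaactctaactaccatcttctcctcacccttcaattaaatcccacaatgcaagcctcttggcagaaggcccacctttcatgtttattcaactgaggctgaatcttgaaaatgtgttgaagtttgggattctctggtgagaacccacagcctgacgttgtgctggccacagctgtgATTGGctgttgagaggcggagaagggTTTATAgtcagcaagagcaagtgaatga
Spp1: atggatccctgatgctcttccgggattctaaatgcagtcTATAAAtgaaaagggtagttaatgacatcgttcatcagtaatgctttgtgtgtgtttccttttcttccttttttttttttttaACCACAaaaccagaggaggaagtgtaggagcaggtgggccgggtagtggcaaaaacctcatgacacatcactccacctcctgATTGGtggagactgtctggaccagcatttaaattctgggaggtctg
Ank: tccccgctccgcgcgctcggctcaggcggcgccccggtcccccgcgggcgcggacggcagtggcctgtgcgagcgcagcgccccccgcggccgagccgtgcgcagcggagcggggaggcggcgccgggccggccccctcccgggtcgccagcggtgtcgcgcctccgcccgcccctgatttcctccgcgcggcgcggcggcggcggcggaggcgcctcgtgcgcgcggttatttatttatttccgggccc

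Both members past 2-fold held TATA box letters close to the start. In Col10a1 they began at position -32, and in Ibsp they lay on the reverse strand from -28, with an inverted CCAAT box from -54 (position -1 is the base before the start). The upstream stretch of Spp1 held an inverted CCAAT box from -46, Runx core letters from -128 and TATA box letters from -211, and that of Ank held none of these letters. TATA box letters were found in 4 of the 11 upstream stretches given for 8 of the members, and in 12.4% of all 32851 stretches of the same length. These counts take letters at any position, and no share was computed for letters close to the start. The inverted CCAAT box was found in 5 of the 11 and in 33.9% of all, the Runx core in 3 and 14.1%, and the AP-1 site in 1 and 6.75%. A search for TAATTA, the core of homeodomain sites, found 2 of the 11 and 4.84% of all, and one for the E-box CANNTG found 8 and 66.2%. None of the capitals in the printed stretches belongs to overlapping motifs. The GC content was 41.6% for Col10a1, 43.6% for both Ibsp and Spp1 and 81.2% for Ank, against a median of 52.4% over all stretches. A match of letters is a description of the sequence and was not tested as a binding site.

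Alpl and Phospho1 encode phosphatases that free phosphate for mineral. Alpl is tissue-nonspecific alkaline phosphatase, which cleaves pyrophosphate outside the cell, and its probe (NM_007431) read 873 before loading and 471 at 24 h. The log2 ratio was -0.89 ± 0.20, which left 54.0% of the earlier level, and 322 of the 14222 genes had a lower one. The range of 2 errors ran from 1.39-fold to 2.46-fold lower. Around the spot of Alpl, 3 of 30 spots were past 2-fold downwards and 0 upwards, with a median log2 ratio of 0.05, and their part in the value was not tested. Phospho1 frees phosphate from phosphocholine inside matrix vesicles. Its probe (NM_153104) read 44.5 before loading and 29.1 at 24 h, near the lowest intensity well above background. The raw median of the spot was 80.5 before loading and 69.0 at 24 h, while the local background was 37 and 42. The log2 ratio of Phospho1 was -0.61 ± 0.35, so that 2 errors reached past 0, and it was -0.16 with normexp correction.

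Spp1 and Panx3 had smaller ratios. Spp1 encodes osteopontin, which binds integrins and mineral and, although counted here with the promoters, is also known to limit crystal growth. Its probe (NM_001204233) read 3315 before loading and 2380 at 24 h, with a log2 ratio of -0.48 ± 0.20, or 1.39-fold lower (up to 1.85-fold at 2 errors). A lower log2 ratio was found for 1171 genes, or 8.23%. Among the 28 spots around that of Spp1, 3 were past 2-fold upwards and 2 downwards. Panx3 encodes pannexin 3, a channel that releases ATP and is made by chondrocytes before and during hypertrophy. Its probe (NM_172454) read 1601 before loading and 1322 at 24 h. The log2 ratio of -0.28 ± 0.20 is not set apart from 0 by 2 errors, and 17.6% of the genes had a lower one.

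Dmp1 encodes dentin matrix protein 1, a phosphoprotein of osteocytes. Its probe (NM_016779) had 4.39 before loading and 4.46 at 24 h, was well above background on neither array, and therefore has no fold. In the RefSeq annotation Dspp, Dmp1, Ibsp, Mepe and Spp1, the genes of the SIBLING family of acidic matrix proteins, follow each other on chromosome 5 in this order. Dspp was well above background on neither array, and Mepe read 104 before loading and 106 at 24 h, with a log2 ratio of 0.03 ± 0.22. Of the 3 SIBLING genes well above background on both arrays, Ibsp was thus 4.18-fold lower and Spp1 1.39-fold lower, and the intensity of Mepe differed by less than its within-array error.

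Among the inhibitors of mineralization, Ank and Mgp gave the log2 ratios closest to 0, and Enpp1 was lower. Enpp1 makes pyrophosphate from ATP, and its probe (NM_008813) read 344 before loading and 237 at 24 h. Its log2 ratio was -0.53 ± 0.21, or 1.45-fold lower (1.09-fold to 1.93-fold over 2 errors), with 6.87% of the genes lower still. Ank is a membrane protein through which pyrophosphate and ATP leave the cell. Its probe (NM_020332) read 2018 before loading and 2120 at 24 h, and with 0.07 ± 0.20 it was the 1 member whose log2 ratio lay above 0. Mgp encodes matrix Gla protein, a secreted inhibitor that needs vitamin K for its modification. Its probe (NM_008597) read 145346 before loading and 131021 at 24 h. The log2 ratio of Mgp was -0.15 ± 0.20, which turned to 0.03 with quantile normalization, and 30.3% of the genes had a lower one. Around each of the 3 spots, at most 1 neighbour was past 2-fold upwards and at most 1 downwards.

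**Figure D2:**
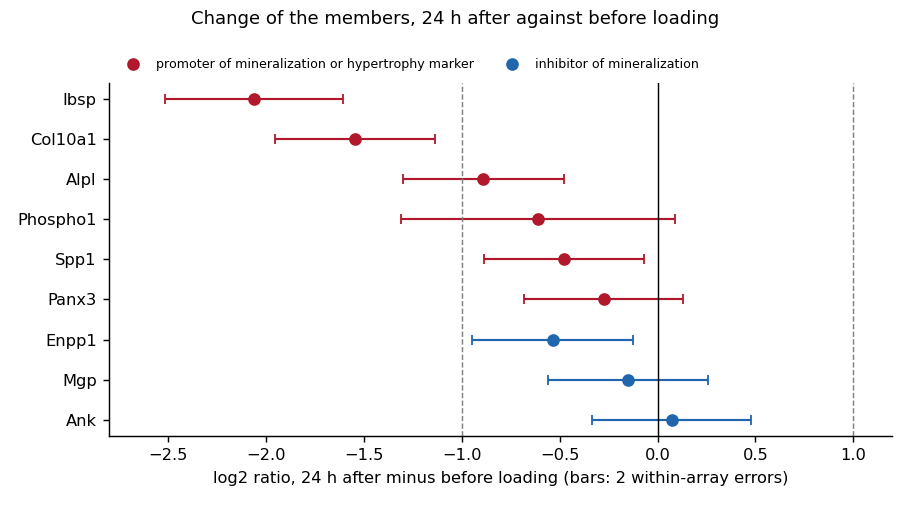
Log2 ratio (24 h after minus before loading) of the 9 members well above background on both arrays, with bars of 2 within-array errors and dashed lines at 2-fold. Ibsp (-2.06) and Col10a1 (-1.54) lie beyond 2-fold with their whole bars, and the inhibitor Enpp1 (-0.53) lies among the promoters Phospho1 (-0.61), Spp1 (-0.48) and Panx3 (-0.28).

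As groups, the 6 measured promoters had a median log2 ratio of -0.75 and a range from -2.06 to -0.28, and the 3 inhibitors had a median of -0.15 and a range from -0.53 to 0.07. The medians differed by -0.60 (promoters minus inhibitors). The groups overlapped, since Enpp1 was lower than Spp1 and Panx3. In 16 of the 18 pairs of a promoter with an inhibitor the promoter had the lower log2 ratio, and in 8 of the 18 the difference was larger than 2 combined within-array errors. All 18 pairs reuse the same 6 promoters and 3 inhibitors, so they are not separate observations. The 8 pairs beyond 2 errors were those of Ibsp and Col10a1 with each inhibitor and those of Alpl with Ank and Mgp. Without Ibsp and Col10a1, therefore, only Alpl differed from an inhibitor by that much. With Spp1 counted among the inhibitors the medians differed by -0.58, and without Col10a1 they differed by -0.46.

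Within the pathway that handles pyrophosphate, the enzyme that cleaves it and the enzyme that makes it were both lower. The log2 ratio of Alpl minus that of Enpp1 was -0.35, with a combined within-array error of 0.29, so less than 2 errors, and minus that of the exporter Ank it was -0.96, with an error of 0.29. That of Enpp1 minus that of Ank was -0.61 (combined error 0.29). The log2 ratio of Col10a1 was 0.52 above that of Ibsp (combined error 0.31), less than 2 errors. Of all 36 pairs of members, which share genes, 18 differed by more than 2 combined errors, and 14 of these held Ibsp or Col10a1. The other 4 were Alpl with Panx3, Ank and Mgp, and Enpp1 with Ank.

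Read against the within-array error alone, 5 of the 9 members (Col10a1, Ibsp, Alpl, Spp1 and Enpp1) were lower by more than 2 errors, where 9.38% of all genes were, and 0 members were higher by more than 2 errors, where 7.64% of all genes were. The count of 5 was 4 with median or spike-in scaling, where Spp1 was at -0.38 and -0.36, and 3 with normexp correction, where Spp1 was at -0.41 and Enpp1 at -0.40. Panx3 and Phospho1 were lower by more than 1 error and less than 2, a cut for which no share of all genes was computed. In bulk RNA, fewer hypertrophic cells and less RNA of these genes per cell cannot be told apart.

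**Figure D3:**
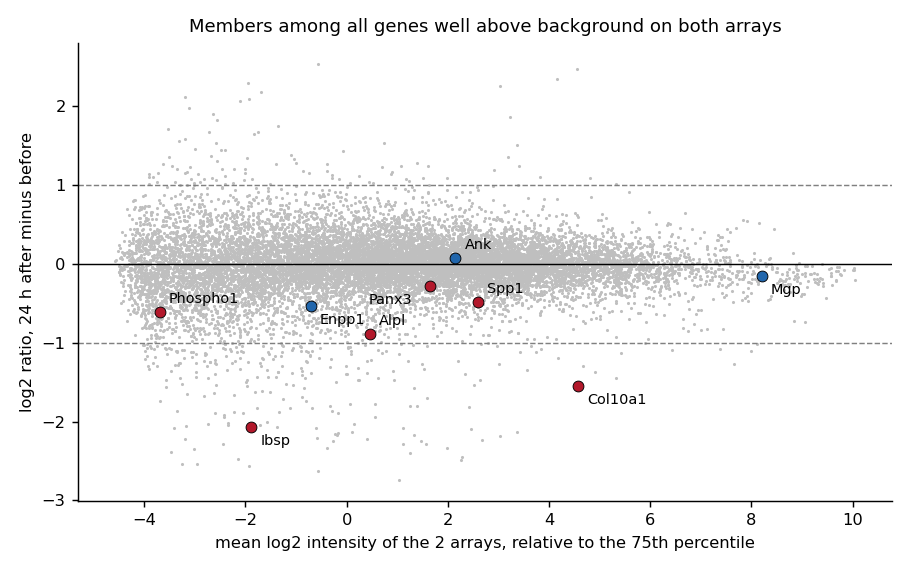
Log2 ratio (24 h after minus before loading) against mean log2 intensity relative to the 75th percentile for the 14222 genes well above background on both arrays (grey), with the members in red (promoters) and blue (inhibitors). Col10a1 lies below all 1348 genes of equal or greater brightness, Ibsp lies among the lowest ratios of dimmer probes, and Ank and Mgp lie in the middle of the cloud.

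Of 10 other genes of phosphate and pyrophosphate handling, 8 were measured on both arrays, 0 were past 2-fold in either direction and 0 differed by more than 2 within-array errors. With 1.83% of all genes more than 2-fold lower and 0.668% more than 2-fold higher, a count of 0 among 8 does not set the list apart. Their median log2 ratio was 0.10, beside -0.01 for all genes. The phosphate importers Slc20a1 and Slc20a2 had log2 ratios of -0.34 and 0.04 on their brighter probes, and -0.46 and -0.06 on their dimmer ones. Smpd3, a sphingomyelinase needed for skeletal mineralization, had 0.15. Nt5e, which turns AMP into adenosine, had 0.17, and Panx1, the relative of Panx3, had -0.16. Ratios were 0.18 for Enpp2, -0.15 for Entpd5 and 0.37 for Pla2g6. Enpp3, a relative of Enpp1, read 34.9 before loading and 19.7 at 24 h, where it was not well above background. Its log2 ratio was -0.83 ± 0.39. Abcc6, which is needed for circulating pyrophosphate, was well above background on neither array.

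Among 10 other mineral-binding matrix proteins, 7 were measured on both arrays, 0 were past 2-fold, and the median log2 ratio was 0.03. Of all genes, 1.83% were more than 2-fold lower and 0.668% higher, so a count of 0 among 7 does not set the list apart. Fetub, a fetuin, was lower by more than 2 within-array errors, with a log2 ratio of -0.81 that was -0.41 with normexp correction. Bglap2, an osteocalcin gene whose near-identical copies may share its probe, was higher by more than 2 errors, at 0.44. By more than 2 errors, 9.38% of all genes were lower and 7.64% higher. Sparc had -0.06 on its brighter probe and 0.04 on its dimmer one, Ucma, which like Mgp is modified through vitamin K, had -0.10, Omd had 0.31 and Gas6 had 0.29. Ahsg was well above background on neither array, and no probe with a RefSeq accession was found for Bglap. The enzymes that modify such proteins, 7 of 7 well above background on both arrays, were within 2-fold with a median of -0.11 that was 0.00 with spike-in scaling. They included the vitamin K enzymes Ggcx (-0.12) and Vkorc1 (0.33) and the kinase Fam20c (0.16), which phosphorylates SIBLING proteins. Fam20a, its partner without kinase activity, was the 1 enzyme lower by more than 2 errors, at -0.54, where 9.38% of all genes were.

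In a list of 19 other genes of the hypertrophic programme, 16 were measured on both arrays and 1, Ihh, was more than 2-fold lower, where 1.83% of all genes were. By more than 2 within-array errors, 4 were lower (9.38% of all genes) and 2 higher (7.64%). Vegfa is not among these 4 on its brighter probe (-0.19 ± 0.14), although its dimmer probe was at -0.64 ± 0.20. Ihh encodes Indian hedgehog, the signal that prehypertrophic chondrocytes send, and it had a log2 ratio of -1.30 ± 0.21, with 586 before loading and 237 at 24 h. The 3 further genes lower by more than 2 errors were Sp7 (-0.64), the osterix gene, Hdac4 (-0.59), a repressor of hypertrophy, and Runx3 (-0.43). Sp7 was at -0.41 with normexp correction, and Runx3 was between -0.40 and -0.32 with median, spike-in or quantile scaling or with its probes averaged, each less than 2 errors. Mmp13, the collagenase of hypertrophic cartilage (0.49), and Sox9 (0.22, with the smaller error of its 9 spots) were higher by more than 2 errors. The median of the list was -0.12, beside -0.75 for the 6 measured promoters, and Runx2, the transcription factor that drives Col10a1, had -0.05 ± 0.26. Dlx6 had 41.3 before loading and 12.4 at 24 h, where it was not well above background. Its log2 ratio was -1.74 ± 0.60, and 2 errors reached within 2-fold. Car2 and Mmp9 were well above background on neither array.

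**Figure D4:**
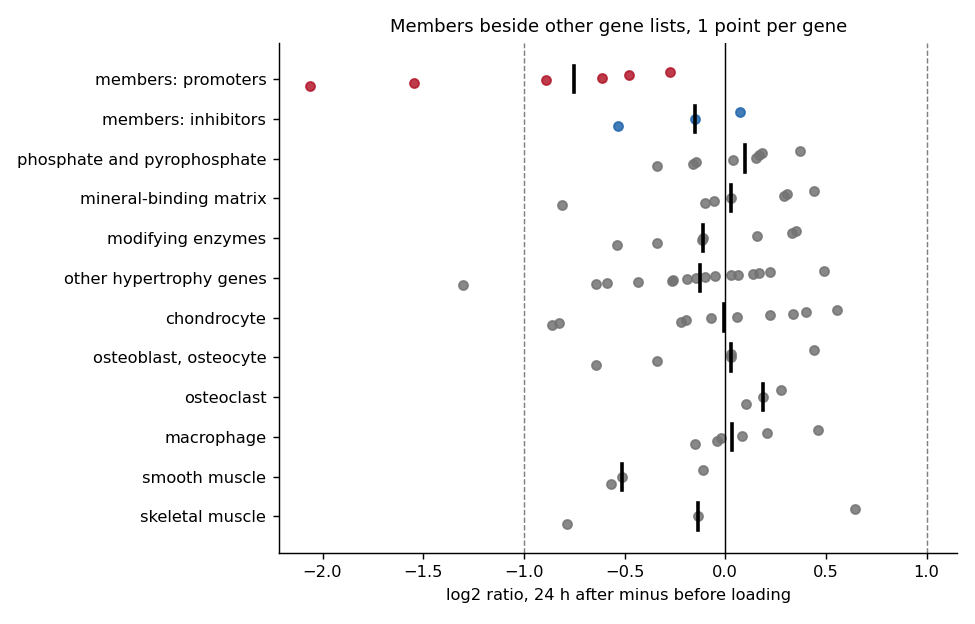
Log2 ratios (24 h after minus before loading) of the measured members and of the other gene lists, 1 point for each gene well above background on both arrays, with a black bar at the median and dashed lines at 2-fold. Ibsp, Col10a1 and Ihh are the points beyond 2-fold, and the medians are -0.75 for promoters, -0.15 for inhibitors and -0.12 for the other hypertrophy genes.

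Several members are also made by other cells, so markers of those cells were read on the same arrays, and their part in the members' ratios was not tested. Of 10 osteoblast and osteocyte markers, 5 were measured on both arrays (Sp7, Bglap2, Mepe, Phex and Tnfrsf11b), with summed intensities of 4226 before loading and 4573 at 24 h and a median log2 ratio of 0.03. Most of these sums came from Tnfrsf11b (3107 and 3168), while Sp7 was lower and Bglap2 higher by more than 2 errors. The markers Sost, Ifitm5 and Dkk1 were well above background on neither array. Of 6 osteoclast markers 3 were measured (Acp5, Ctsk and Oscar), with summed intensities of 16339 and 18618 and a median of 0.19. Nearly all of these sums came from Ctsk (15505 and 17637), and Calcr and Dcstamp were well above background on neither array, while Atp6v0d2 was so at 24 h alone.

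Macrophages are a known source of Spp1. Of 7 macrophage markers 6 were measured, with summed intensities of 29724 before loading and 28787 at 24 h and a median log2 ratio of 0.03. Adgre1 had 55.6 and 59.0. Csf1r had 3646 and 3288 on its brightest probe, 845 and 967 on the next and 33.0 and 39.9 on the dimmest. Lyz2 read 367 and 506, higher by more than 2 errors at 0.46 and less than 2 errors higher with normexp correction (0.36). Most of the sums came from 1 probe of Itgam (25496 and 24759), whose other probes had at most 70.4 before loading. Smooth muscle, which makes Mgp, was represented by 4 markers, of which 3 were measured. Acta2 (-0.51) and Tagln (-0.57) were lower by more than 2 within-array errors, the summed intensities of the list were 22186 and 15468, and its defining marker Myh11 was well above background on neither array. Of 4 skeletal muscle markers 3 were measured, with summed intensities of 840 and 713 and a median of -0.13. They went opposite ways by more than 2 errors, since Tnnt3 was at -0.78, with 449 and 224 on its dimmer probe, and Myh3 at 0.64.

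Across 10 other settings of scaling, background correction, filter and probe choice, the log2 ratio of Col10a1 stayed between -1.54 and -1.43 and that of Alpl between -0.89 and -0.77. That of Ibsp ran from -2.22, with its 2 probes averaged, to -1.36. For 8 of the 9 measured members the sign was the same under each of these settings, and the exception was Mgp. The filter and the choice of probe could not alter the ratio of a member with 1 probe. The number of members below 0 was 8 under each setting except quantile normalization, where it was 7. Of all 14222 genes, 52.4% lay below 0 with the scaling used for the reported values.

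**Figure D5:**
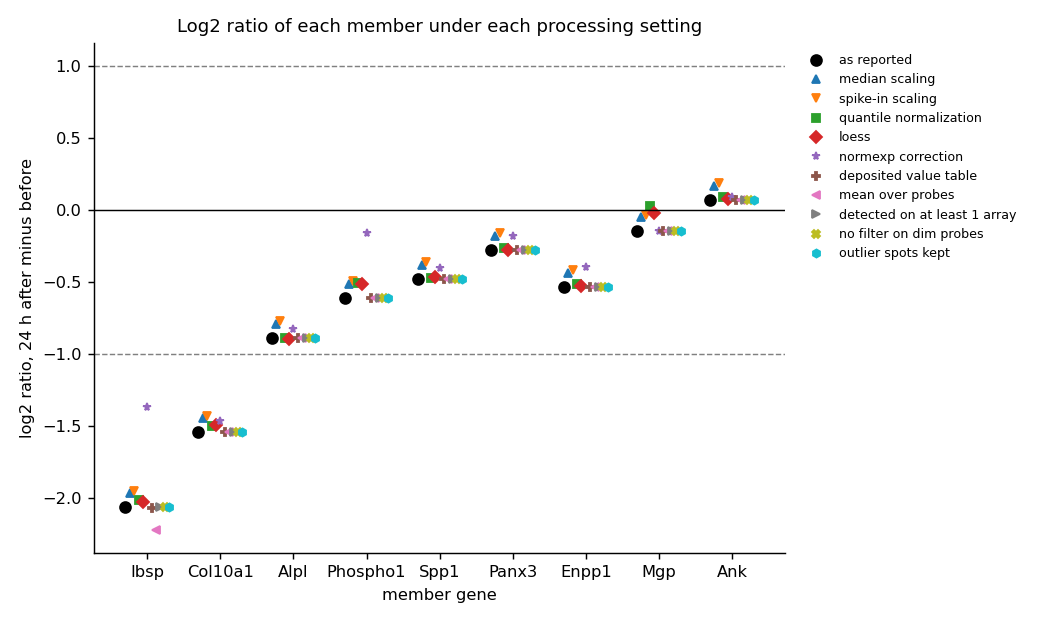
Log2 ratio (24 h after minus before loading) of each of the 9 measured members as reported (black) and under 10 other processing settings, with dashed lines at 2-fold. Ibsp and Col10a1 stay beyond 2-fold lower under each of these settings, Ibsp and Phospho1 move most with normexp correction, and Mgp lies on both sides of 0.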

How the data were processed

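Cy3-labelled RNA of primary chondrocytes was hybridised to SurePrint G3 mouse arrays in 1 colour, 1 array per group and both on 1 slide. Deposited spot intensity values came from Agilent Feature Extraction 10.10.1.1 (version per the submitters' processing notes), background-subtracted and without scaling between arrays. A deposited value table holds the same intensities rounded, with a largest difference of 0.497%. Of 59305 spots, 255 were dropped because at least 1 array marked them as outliers, and spots of 1 probe were averaged on the log2 scale (55678 probes). Each array was scaled to its 75th percentile (intensity 466.4 before loading and 466.2 at 24 h). Between 57.7% and 59.1% of spots were well above background, and 0 were saturated.

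Accessions, without versions, were named through a RefSeq table of GRCm38.p6, while the array design is built on mm9, so no probe coordinates are given; the coordinates printed are those of RefSeq's own GRCm38.p6 upstream stretches. Named are all 10 members with all their probes, every gene of the phosphate and mineral-binding lists and genes of other lists past 2-fold; the further genes named were chosen after their values were seen. A marker of the osteoblast list is not reported here by name. The members and lists were chosen with earlier results of these data known. No test was possible with 1 array per group. The scaling and the 2-fold calls were tested on simulated data for correct computation only. R 4.3.3 with limma 3.58.1 gave the quantile, loess and normexp alternatives. Other values were computed in Python 3.11.15 (numpy 2.4.6, pandas 2.3.3).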

Additional observations from a re-analysis of the deposited data

How the results depend on the processing

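The log2 ratios of 9 members were recomputed under 10 settings, and Ibsp and Col10a1 were more than 2-fold lower under each of them. Several of these settings could hardly move a member with 1 probe. Averaging of probes and the detection filters left Col10a1 at -1.54, as did keeping outlier spots and using the rounded deposited values. Ibsp (-1.36) and Phospho1 (-0.16) moved beyond their error, both with normexp correction, which was run on the median spot intensity with an offset of 50 because the files used here hold no mean. Log2 ratios ranged from -1.54 to -1.43 for Col10a1, from -0.89 to -0.77 for Alpl, from -0.48 to -0.36 for Spp1, from -0.28 to -0.16 for Panx3, from -0.54 to -0.40 for Enpp1, from 0.07 to 0.19 for Ank and from -0.15 to 0.03 for Mgp, the 1 member whose sign turned. With quantile normalization the median of the inhibitors was also 0.03. Means in place of medians gave -0.98 for the promoters. Without Ibsp, Alpl and Spp1, whose spots had at least 3 neighbours within 100 µm changed more than 2-fold in 1 direction, an alternative chosen after seeing the data, the promoters had a median of -0.61 and the groups differed by -0.46. The medians differed by between -0.73 and -0.46 (promoters minus inhibitors) over all settings run on medians, and the means differed by -0.77.

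Over all 14222 genes, 260 were more than 2-fold lower and 95 higher, so that 26.8% of these were higher. With median scaling 205 were lower and 130 higher (38.8%), and with spike-in scaling, which raised the median of all genes to 0.10, 187 and 138 (42.5%). With normexp correction 117 were lower and 38 higher, with detection on at least 1 array 507 and 192, and with no filter on dim probes 983 and 492. Signal over background limits Phospho1, the dimmer probe of Ibsp and Dmp1. No paired analysis was possible because there was 1 array per group, which also leaves no replicate to leave out.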
